A study of Mus musculus with 6 samples.

Results

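The genes described here are 101 protein-coding genes of distal chromosome 1, the end of the mouse chromosome that carries the lupus susceptibility interval Sle1. They were chosen by position and by level, from Uap1 (chromosome 1, start 170141938) to Cr1l (start 195097382, end 195131586; mm10), with a level that averaged 1 FPKM or more across the 6 libraries. The table held 226 protein-coding features in this stretch. Of these, 25 were set aside by name, among them the SLAM family and Ifi200 family genes, 100 fell below the mean, and 101 of the 33300 features of the table were left. The choice used the mean over both groups and not the difference between them, but a gene with a mean below 1 FPKM in one group entered only through the other group, and this applied to 8 members. How far the introgressed interval reaches is not given in the labels, so the genes are described as neighbours on the chromosome and not as members of a mapped interval.

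RNA was measured in CD4 T cells of 3 control mice, labelled WT, and of 3 SLE1.2.3 mice, all of them female and age-matched, with the age and the control strain not given in the labels. Naive cells from each mouse spent 5 days on plates coated with antibodies to CD3 and CD28. Antibodies to IL-4 and IFNγ (10 µg/mL each) were present, with the cytokines IL-6 (50 ng/mL), IL-1β and IL-23 (10 ng/mL each) and TGFβ1 (1 ng/mL), so both groups were Th17 differentiated and no unstimulated cells were measured. Mice under this name are congenic for the lupus intervals Sle1, Sle2 and Sle3 together, which lie on separate chromosomes, so an effect of distal chromosome 1 cannot be told apart from one of the other intervals. Values are FPKM, a read count scaled by gene length and by the depth of the library, so levels of different genes can be set side by side.

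Sle1 is known for the loss of tolerance to nuclear antigens, and finer mapping has divided it into subintervals for which surface receptors of the SLAM and Fc receptor families and complement receptors have been put forward as candidates. The stretch also holds many housekeeping genes, several signalling adaptors and phosphatases of lymphocytes, and a few transcription factors. A gene inside an introgressed interval can differ in RNA level between strains through its own sequence, and genes outside it can differ as well, so a level alone does not separate these.

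For 3 members that are taken up below, the 250 bases before a gene start that overlap no annotated exon are shown. They are examples of a fall with a searched motif (Ppox), the larger fall of a detoxification gene (Ephx1) and a rise (Usf1). For Ephx1 the start used here lies inside the longer span given with the FPKM values, 180976210 to 181020904. The letters are those of the C57BL/6J reference in RefSeq (GRCm38.p6, the build also called mm10), 5′ to 3′ on the strand of the gene, and are not read from these mice. Capitals mark an interferon-stimulated response element, searched on both strands as GAAA followed, after any 2 bases, by GAAA again.
Ppox, chr1:171281187-171281436, minus strand: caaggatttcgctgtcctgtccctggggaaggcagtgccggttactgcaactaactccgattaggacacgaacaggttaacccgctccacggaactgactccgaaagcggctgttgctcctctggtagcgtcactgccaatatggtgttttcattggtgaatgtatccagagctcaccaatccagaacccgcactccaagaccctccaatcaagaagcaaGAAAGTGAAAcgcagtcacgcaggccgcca
Ephx1, chr1:181017570-181017819, minus strand: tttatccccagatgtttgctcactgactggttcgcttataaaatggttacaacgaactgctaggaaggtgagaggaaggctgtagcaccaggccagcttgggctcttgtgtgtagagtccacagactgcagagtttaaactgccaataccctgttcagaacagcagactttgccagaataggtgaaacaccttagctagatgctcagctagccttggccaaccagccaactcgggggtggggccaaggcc
Usf1, chr1:171411063-171411312, plus strand: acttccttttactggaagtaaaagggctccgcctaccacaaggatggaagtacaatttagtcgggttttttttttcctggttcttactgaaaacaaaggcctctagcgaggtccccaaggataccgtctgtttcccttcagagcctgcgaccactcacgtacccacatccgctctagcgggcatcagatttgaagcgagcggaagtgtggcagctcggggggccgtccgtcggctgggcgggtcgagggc

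In the RefSeq table, 85 of the 101 members had promoter windows, 111 in all, each running from 250 bases before to 50 bases after a gene start. The response element was found in 5 of these windows (4.5%), against 3.44% of the 32851 windows of the whole table. Among the 5 are overlapping windows of Zbtb18, starting at 177444403 and 177444411, which hold the same element, so it was counted in each. A gamma-activated site was searched as TTCNNNGAA, which reads the same on both strands. It was found in 6 of the 111 windows (5.41%), against 8.3% of all windows. Among members past the threshold, the response element lay in windows of Ppox and Zbtb18, both of which had less RNA in SLE1.2.3 cells. These matches are a description of letters and not of bound sites. Smyd3, Marc2, Nsl1 and Nenf are named without a sequence.

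The libraries held between 29.7 and 83.5 M reads assigned to features, read from the step size of low FPKM values, with the lowest depth in control mouse 3. Of the marker lists for other cells, the 4 γδ T cell genes (Trdc, Trgc1, Trgc2 and Trdv4) were each higher in SLE1.2.3 cells, with a summed level of 2.01 to 2.32 FPKM in the controls and of 41.9, 190 and 423 FPKM in SLE1.2.3 mice 1, 2 and 3; Trdv4 was listed at 0 in control mice 1 and 3. For the list of CD8 T and NK cells, 3 of 5 genes were higher, and the sum was 12.2 to 13.4 FPKM in the controls against 43.3, 151 and 249.3 FPKM. Of the 3 tested B cell genes, 3 were higher, with sums of 2.5 to 4.25 FPKM against 62.4, 92.4 and 161 FPKM. The 4 γδ T cell genes, Klrk1 of the CD8 T and NK list, and Cd79b and Jchain of the B cell list had control means below 1 FPKM. They were tested through the SLE1.2.3 libraries alone, so their direction was set by the filter on the mean. In the myeloid list 1 of 3 tested genes, Cd68, was lower, and the sums were 8.29 to 9.65 FPKM in the controls against 12.1, 5.09 and 3.1 FPKM. Cd4, which marks the cells that the culture started from, was at 246, 264 and 253 FPKM in the controls and at 257, 144 and 71.6 FPKM in SLE1.2.3 mice 1, 2 and 3. The part of these cells in the differences below was not tested. In bulk RNA, fewer cells of one type and less RNA per cell cannot be told apart.

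RNA of Capn2, Dusp12, Degs1, Usf1 and Psen2 was higher in SLE1.2.3 cells, and RNA of Ephx1, Zbtb18, Nenf and Smyd3 was lower. Hlx, Kmo, Hsd11b1 and Slc30a1 were also higher, but they entered through the SLE1.2.3 libraries alone, so that their direction was set by the choice. In limma's test on log2(FPKM + 1), 28 of the 101 members passed an adjusted p of 0.05, of which 15 were higher and 13 lower. Among all 11378 genes tested, 15.2% passed, with 9.65% higher and 5.58% lower, against 27.7% of the members, with 14.9% higher and 12.9% lower. The 433 tested protein-coding genes of chromosome 1 that start before the stretch had 14.8% past the threshold. Whether these shares differ was not tested. Among the 93 members with a mean of at least 1 FPKM in both groups, 22 passed, 11 in each direction. The split rests on the scaling. Once every library was set to the same FPKM sum, 13 members were higher and 5 lower (72.2% higher, against 53.6% in the main test). Quantile normalization called 13 higher and 20 lower (39.4% higher). The split over all tested genes moved as well. It was 1098 higher and 635 lower in the main test, 990 and 351 with the same FPKM sum, and 921 and 881 with quantile normalization.

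The median log2 change of the members was 0.02, close to the 0.01 of all tested genes, and the median of its absolute size was 0.24 against 0.17. Most differences were small, and 8 of the 28 members past the threshold reached a ratio of group means of at least 2 or at most 0.5. The 3 SLE1.2.3 values lay outside the range of the 3 control values for 59 members, 30 of them higher and 29 lower, where 41.5% of all tested genes were separated in this way. That comes to 58.4% of the members, a share whose difference from the whole table was likewise not tested. Among members that did not pass, 31 were still separated and 42 overlapped.

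**Figure D1:**
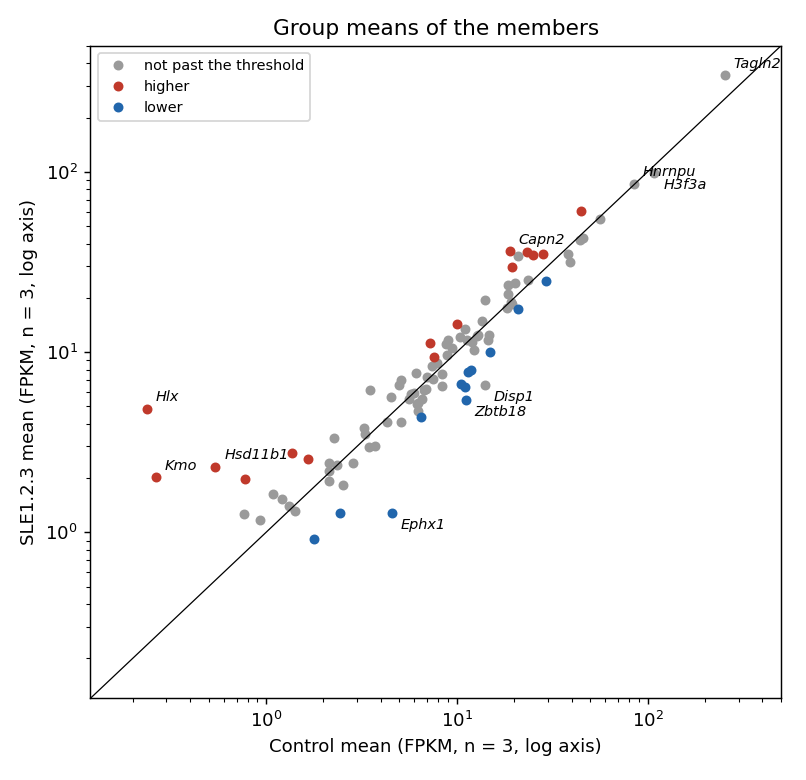
Mean level of 98 of the 101 members in SLE1.2.3 cells (vertical) against control cells (horizontal), in FPKM on log axes, 3 mice per group; the line marks equal means. Most members lie along the line, with Hlx and Kmo far above it and Ephx1 far below it.

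**Figure D2:**
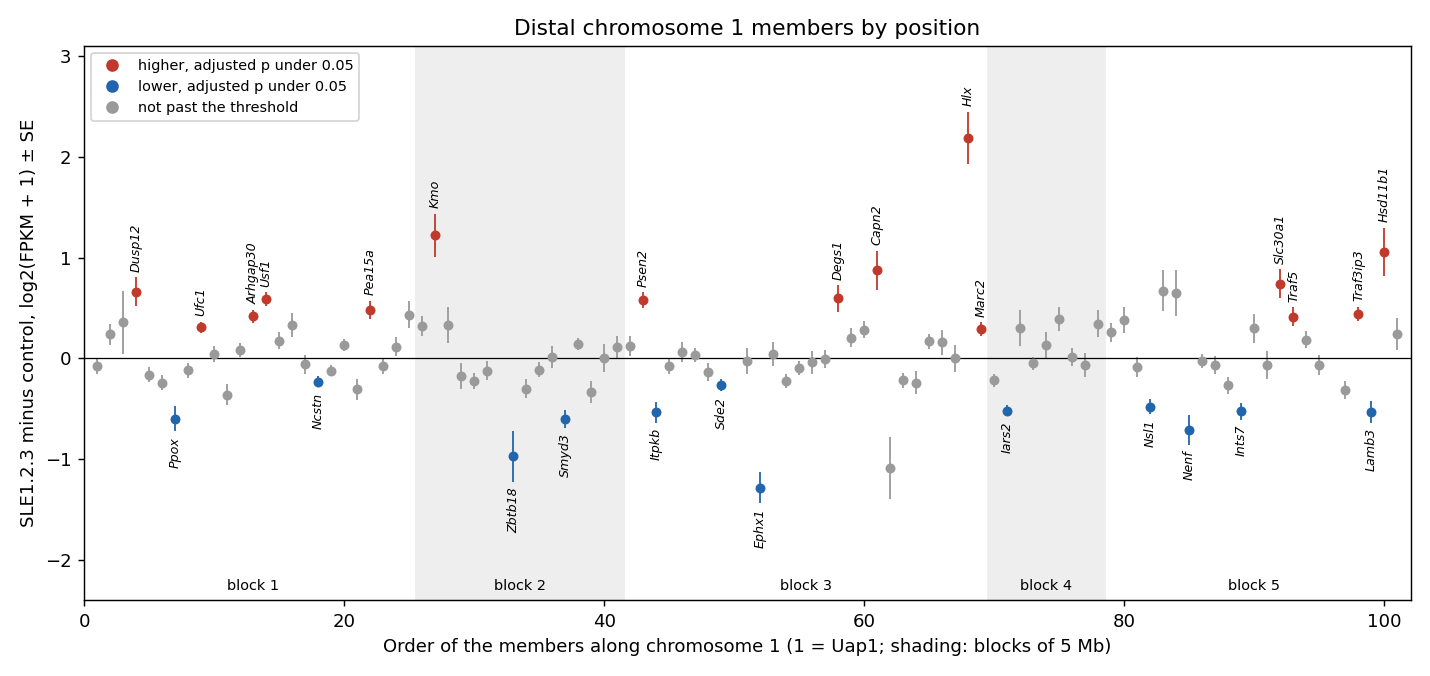
Log2 change of 98 of the 101 members (SLE1.2.3 minus control on log2(FPKM + 1), bars SE) in the order of the genes along the chromosome, with blocks of 5 Mb shaded in turn. Red and blue points, 15 and 12 of them, passed the threshold, and both colours occur in 4 of the 5 blocks, while the fourth block holds Iars2 as its single coloured point.

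By position, the members past the threshold were spread along the stretch. Counted in blocks of 5 Mb, the last one running on to the final gene, they made up 7 of 25 members in the first block, 3 of 16 in the second, 8 of 28 in the third, 1 of 9 in the fourth and 9 of 23 in the last. The corresponding shares were 28%, 18.8%, 28.6%, 11.1% and 39.1%, and with so few genes per block they are a description. There were 6 pairs of adjacent members that both passed, 3 of them with the same direction and 3 with opposite directions. In 4 of these pairs a member had entered through one group, which set its direction, and the other 2 were Arhgap30 with Usf1, both higher, and Psen2 with Itpkb, of opposite direction. The widest gap without a member, 3.09 Mb between Tagln2 and Fh1, holds the Ifi200 family genes that were set aside by name.

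The first block runs from Uap1 to Tagln2. Usf1 (start 171411313, end 171419142), a basic helix-loop-helix transcription factor that binds E-box sequences, was at 18.5, 21.1 and 18.6 FPKM in control mice 1, 2 and 3 and at 28.8, 30.2 and 29.8 FPKM in SLE1.2.3 mice 1, 2 and 3. There was no overlap between groups, and the SLE1.2.3 values were close together. The change was 0.59 ± 0.07 on the log2 scale (SE; limma, adjusted p = 0.0082), a ratio of means of 1.52. Its neighbour Arhgap30, a GTPase-activating protein of haematopoietic cells, rose from 44.9 ± 0.434 to 60.4 ± 3.56 FPKM (SD, n = 3 each), with no overlap. Tstd1, whose start lies within the end of Usf1, was at 0.927 ± 0.0391 and 1.17 ± 0.0606 FPKM and did not pass (limma adjusted p = 0.2). Its mean was below 1 FPKM in the controls.

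Ufc1 encodes the conjugating enzyme of UFM1, a ubiquitin-like modifier of the endoplasmic reticulum. Its level was 27.3, 29.2 and 28.2 FPKM in the controls and 35.3, 35.3 and 35 FPKM in SLE1.2.3 mice. This was a small difference, 0.31 ± 0.06 on the log2 scale (SE; limma, adjusted p = 0.02), with almost equal values in the 3 SLE1.2.3 mice. Ppox, an enzyme of haem synthesis, was at 10.4, 11.3 and 9.83 FPKM in control mice and at 8.02, 6.32 and 5.64 FPKM in SLE1.2.3 mice. It fell by 0.60 on the log2 scale (SE 0.12; limma, adjusted p = 0.029), with mouse 1 nearest to the controls. B4galt3, which overlaps the end of Ppox by 907 bases on the other strand, was at 3.73 ± 0.034 and 3 ± 0.258 FPKM and did not pass (limma adjusted p = 0.073).

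Dusp12, a dual-specificity phosphatase, rose from 1.36 ± 0.227 to 2.76 ± 0.607 FPKM (SD, n = 3 each), a ratio of 2.03. Pea15a, a death effector domain protein that binds ERK kinases, rose from 10 ± 0.725 to 14.4 ± 1.47 FPKM. Ncstn, the nicastrin subunit of the γ-secretase that cleaves Notch receptors, had 29.8, 29 and 29.1 FPKM in the controls and 24, 25 and 25.6 FPKM in SLE1.2.3 mice. No values overlapped, and RNA fell by 0.23 on the log2 scale (SE 0.06; limma, adjusted p = 0.041). It did not pass with no filter, without the variance trend or with libraries set to the same FPKM sum (limma adjusted p = 0.725 for the last). Ncstn shares 267 bases with the start of Copa, the coatomer subunit gene on the other strand, which was at 38.4 ± 1.52 and 35.2 ± 0.706 FPKM (limma adjusted p = 0.2). Tagln2, the actin-binding transgelin 2, had the highest level of all members, with 259, 259 and 242 FPKM in control mice and 285, 351 and 400 FPKM in SLE1.2.3 mice. Its groups were apart, but the SLE1.2.3 values were spread and it did not pass (limma adjusted p = 0.072).

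Of the other members of this block, Nit1, Tomm40l and Dcaf8 had lower means in SLE1.2.3 cells without overlap, and Pex19 and Alyref2 higher ones, none of which passed (limma adjusted p from 0.065 to 0.18). In Uap1, Uhmk1, Atf6, Usp21, Dedd, Pfdn2, Gm10521, Igsf8 and Pigm the groups overlapped. Atf6, a sensor of the unfolded protein response, was at 10.6 FPKM in SLE1.2.3 mouse 1, below the controls, and at 20.8 and 27.3 FPKM in mice 2 and 3, above them.

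The second block runs from Fh1 to Ahctf1. Kmo, the kynurenine 3-monooxygenase of tryptophan breakdown, was at 0.261, 0.168 and 0.363 FPKM in the controls, from 62, 45 and 51 reads, and at 1.11, 2.29 and 2.64 FPKM in SLE1.2.3 mice, from 439, 667 and 938 reads. The ratio of means was 7.63, with no overlap (log2 change 1.22 ± 0.22 SE; limma adjusted p = 0.02). It passed the mean of 1 FPKM through the SLE1.2.3 libraries alone, so its direction was set by the choice. Kmo overlaps Fh1, the fumarate hydratase gene, by 5255 bases on the other strand. Fh1 was at 18.5 ± 0.42 and 23.5 ± 3.07 FPKM (SD, n = 3 each) and did not pass (limma adjusted p = 0.077). The strand setting of the counting is not given in the sources used here, so reads of such overlapping pairs may have been counted for either gene.

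Zbtb18, a zinc finger transcriptional repressor, had 12.2, 10.7 and 10.5 FPKM in the controls and 8.08, 4.84 and 3.41 FPKM in SLE1.2.3 mice 1, 2 and 3. Groups were apart, but the SLE1.2.3 libraries differed widely among themselves, and the change was close to the threshold (fell by 0.97 on the log2 scale, SE 0.25; limma adjusted p = 0.0495). With a pseudocount of 0.1 FPKM, with no filter, without the variance trend or with voom on recovered reads, it no longer passed. Such losses were not particular to Zbtb18. Most members past the threshold, among them Ncstn, Sde2 and Marc2, did not pass under some of the alternatives. Smyd3, a lysine methyltransferase, fell from 2.46, 2.54 and 2.35 FPKM to 1.45, 1.22 and 1.15 FPKM, a ratio of means of 0.52 with close values within each group. The change was -0.60 ± 0.09 (SE; limma, adjusted p = 0.012).

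Among the others, Adss, an enzyme of AMP synthesis, was at 39.3 ± 3.07 and 31.7 ± 3.34 FPKM (SD, n = 3 each) and did not pass (limma adjusted p = 0.082). Cep170, Cnst, Desi2 and Sdccag8 were lower and Tfb2m higher without overlap and without passing. Chml was the member nearest to the lower limit, with a mean of 1.014 FPKM, which it reached through the SLE1.2.3 libraries alone. Its groups overlapped, as did Exo1, Hnrnpu, Sccpdh and Ahctf1. Just outside the limit was Dusp23, with a mean of 0.82 FPKM.

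The third block runs from Coq8a to Marc2 and holds a pair of called neighbours of opposite direction. Psen2, presenilin 2, a catalytic subunit of the same γ-secretase to which nicastrin belongs, was at 7.93, 6.58 and 7.22 FPKM in the controls and at 11.2, 11.1 and 11.6 FPKM in SLE1.2.3 mice. The groups were well apart and the SLE1.2.3 values nearly equal, with a change of 0.58 ± 0.08 (SE; limma, adjusted p = 0.0097) and a ratio of means of 1.56. Itpkb, a kinase that turns inositol trisphosphate over in lymphocytes, was at 13.5, 15.2 and 16 FPKM in the controls and at 11.4, 9.42 and 9.08 FPKM in SLE1.2.3 mice. It fell by 0.54 on the log2 scale (SE 0.11; limma, adjusted p = 0.025), again without overlap.

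Ephx1, the microsomal epoxide hydrolase of xenobiotic metabolism, was at 4.02, 5.57 and 4.11 FPKM in control mice and at 1.58, 1.33 and 0.935 FPKM in SLE1.2.3 mice. Every SLE1.2.3 value was far below the lowest control value, and the ratio of means was 0.281. The change was -1.29 ± 0.15 (SE; limma, adjusted p = 0.0079). Sde2, a protein linked to replication and splicing, fell from 21 ± 0.973 to 17.2 ± 0.419 FPKM (SD, n = 3 each), without overlap.

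Capn2, the catalytic subunit of m-calpain, was at 19.8, 19 and 18.1 FPKM in the controls and at 25.7, 38.8 and 44.9 FPKM in SLE1.2.3 mice 1, 2 and 3. Again the groups were apart, mouse 1 lay nearest to the controls, and the ratio of means was 1.92 (log2 change 0.87 ± 0.19 SE; limma adjusted p = 0.035). Degs1, the dihydroceramide desaturase of sphingolipid synthesis, rose from 23.4 ± 2.65 to 35.9 ± 5.42 FPKM. Disp1, which releases lipid-anchored Hedgehog ligands, was at 15, 13.3 and 13.9 FPKM in the controls and at 10.7, 5.33 and 3.79 FPKM in SLE1.2.3 mice; its ratio of 0.468 was the lowest among members that did not pass (limma adjusted p = 0.06).

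Hlx, a homeobox transcription factor of the interferon-γ-producing T helper programme, had the largest increase. It was at 0.218, 0.124 and 0.369 FPKM in control mice, from 25, 16 and 25 reads, and at 2.74, 5.36 and 6.46 FPKM in SLE1.2.3 mice, from 521, 753 and 1106 reads. The groups were far apart, with a ratio of means of 20.5 and a change of 2.19 ± 0.26 (SE; limma, adjusted p = 0.0078). Like Kmo it passed the mean through the SLE1.2.3 libraries alone, so its direction was set by the choice. The next gene, Marc2, a mitochondrial amidoxime reductase, rose from 7.55 ± 0.504 to 9.43 ± 0.293 FPKM (SD, n = 3 each), without overlap. Marc2 appears in the deposited table under a date, the result of a spreadsheet, and was named from its gene ID.

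The remaining members of this block did not pass. Brox and Cnih4 were lower and Trp53bp2 and Mia3 higher without overlap. The groups overlapped for Coq8a, Parp1, Lin9, Acbd3, H3f3a, Tmem63a, Nvl, Wdr26, Lbr, Srp9, Fbxo28, Aida, Taf1a and Dusp10. Parp1, the DNA damage-sensing ADP-ribose polymerase, was at 44.1 ± 0.967 and 42 ± 3.72 FPKM, H3f3a, a gene of the histone variant H3.3, at 108 ± 6.18 and 98.8 ± 8.19 FPKM, and Dusp10, a phosphatase of JNK and p38, at 5.77 ± 0.212 and 5.84 ± 1.27 FPKM.

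The fourth block, from Rab3gap2 to Smyd2, held 9 members. Iars2, the mitochondrial isoleucyl-tRNA synthetase, was at 11.4, 11.3 and 11.9 FPKM in the controls and at 7.4, 7.89 and 7.93 FPKM in SLE1.2.3 mice. Values within each group lay close together, and the change was -0.52 ± 0.06 (SE; limma, adjusted p = 0.0074). Rab3gap2, which shares 2034 bases with Iars2 on the other strand, was at 6.15 ± 0.367 and 5.15 ± 0.0881 FPKM, and Gpatch2 at 2.28 ± 0.0985 and 3.32 ± 0.611 FPKM (SD, n = 3 each). Neither passed, although their groups did not overlap. Eprs, the cytosolic glutamyl-prolyl-tRNA synthetase, was at 12.8 ± 0.754 and 12.4 ± 0.383 FPKM, and Cenpf, a kinetochore protein, at 13 ± 0.506 and 12.4 ± 2.17 FPKM. Their groups overlapped, as did those of Bpnt1, Rrp15, Kctd3 and Smyd2.

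The last block, from Angel2 to Cr1l, had the highest share of members past the threshold. Towards its end, 3 neighbours past the threshold lie within 88.6 kb. Traf3ip3, an adaptor that binds TRAF3 and serves T cell development, was at 23.9, 25.8 and 25.4 FPKM in the controls and at 37, 33.4 and 32.9 FPKM in SLE1.2.3 mice, with no overlap and the highest value in mouse 1. It rose by 0.44 ± 0.07 on the log2 scale (SE; limma, adjusted p = 0.016). A130010J15Rik, which overlaps Traf3ip3 by 2380 bases on the other strand, was at 2.54 ± 0.209 and 1.84 ± 0.179 FPKM (SD, n = 3 each) and did not pass (limma adjusted p = 0.059). Lamb3, a laminin chain, fell from 1.77 ± 0.199 to 0.919 ± 0.165 FPKM. Hsd11b1, the enzyme that regenerates active glucocorticoid, was at 0.43, 0.53 and 0.665 FPKM in the controls and at 1.2, 2.51 and 3.24 FPKM in SLE1.2.3 mice 1, 2 and 3, a ratio of means of 4.27 (log2 change 1.06 ± 0.24 SE; limma adjusted p = 0.037). As annotated, Lamb3 and Hsd11b1 overlap by 42442 bases on opposite strands, and they moved in opposite directions. Each passed the mean of 1 FPKM through its higher group, so the direction of both was set by the choice.

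Nsl1, a kinetochore subunit, fell from 6.48 ± 0.436 to 4.36 ± 0.255 FPKM, and Nenf, the secreted protein neudesin, from 11 ± 1.28 to 6.39 ± 1.32 FPKM (SD, n = 3 each). Ints7, a subunit of the Integrator complex that processes small nuclear RNA, was at 11.9, 11.4 and 12.2 FPKM in the controls and at 7.22, 7.79 and 8.82 FPKM in SLE1.2.3 mice, with mouse 1 the lowest. It fell by 0.53 on the log2 scale (SE 0.08; limma, adjusted p = 0.015). Dtl, a substrate receptor of an E3 ubiquitin ligase whose gene lies next to Ints7, was at 5.09 ± 0.135 and 4.07 ± 0.472 FPKM and did not pass (limma adjusted p = 0.077).

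Slc30a1, the zinc exporter ZnT1, rose from 0.771 ± 0.0872 to 1.99 ± 0.501 FPKM, having passed the mean through the SLE1.2.3 libraries alone. Its neighbour Traf5, an adaptor of TNF receptor family signalling in T cells, was at 1.43, 1.7 and 1.88 FPKM in the controls and at 2.38, 2.54 and 2.74 FPKM in SLE1.2.3 mice. The groups did not overlap, and the change was 0.41 ± 0.10 on the log2 scale (SE; limma, adjusted p = 0.037).

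A pair of AP-1 family genes in this block had higher means without passing. Batf3 was at 24.7, 19.9 and 17.9 FPKM in the controls and at 24.8, 37.9 and 40 FPKM in SLE1.2.3 mice, and Atf3 at 3.49 ± 0.667 and 6.18 ± 2.02 FPKM (limma adjusted p = 0.071 and 0.097). SLE1.2.3 mouse 1 lay next to control mouse 1 for Batf3. Angel2, Flvcr1 and Rcor3 were likewise higher without overlap. The groups overlapped for Tatdn3, Pacc1, Ppp2r5a, Lpgat1, Nek2, Utp25 and Cr1l, the last member, a complement regulator at 4.51 ± 0.195 and 5.6 ± 1.44 FPKM.

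**Figure D3:**
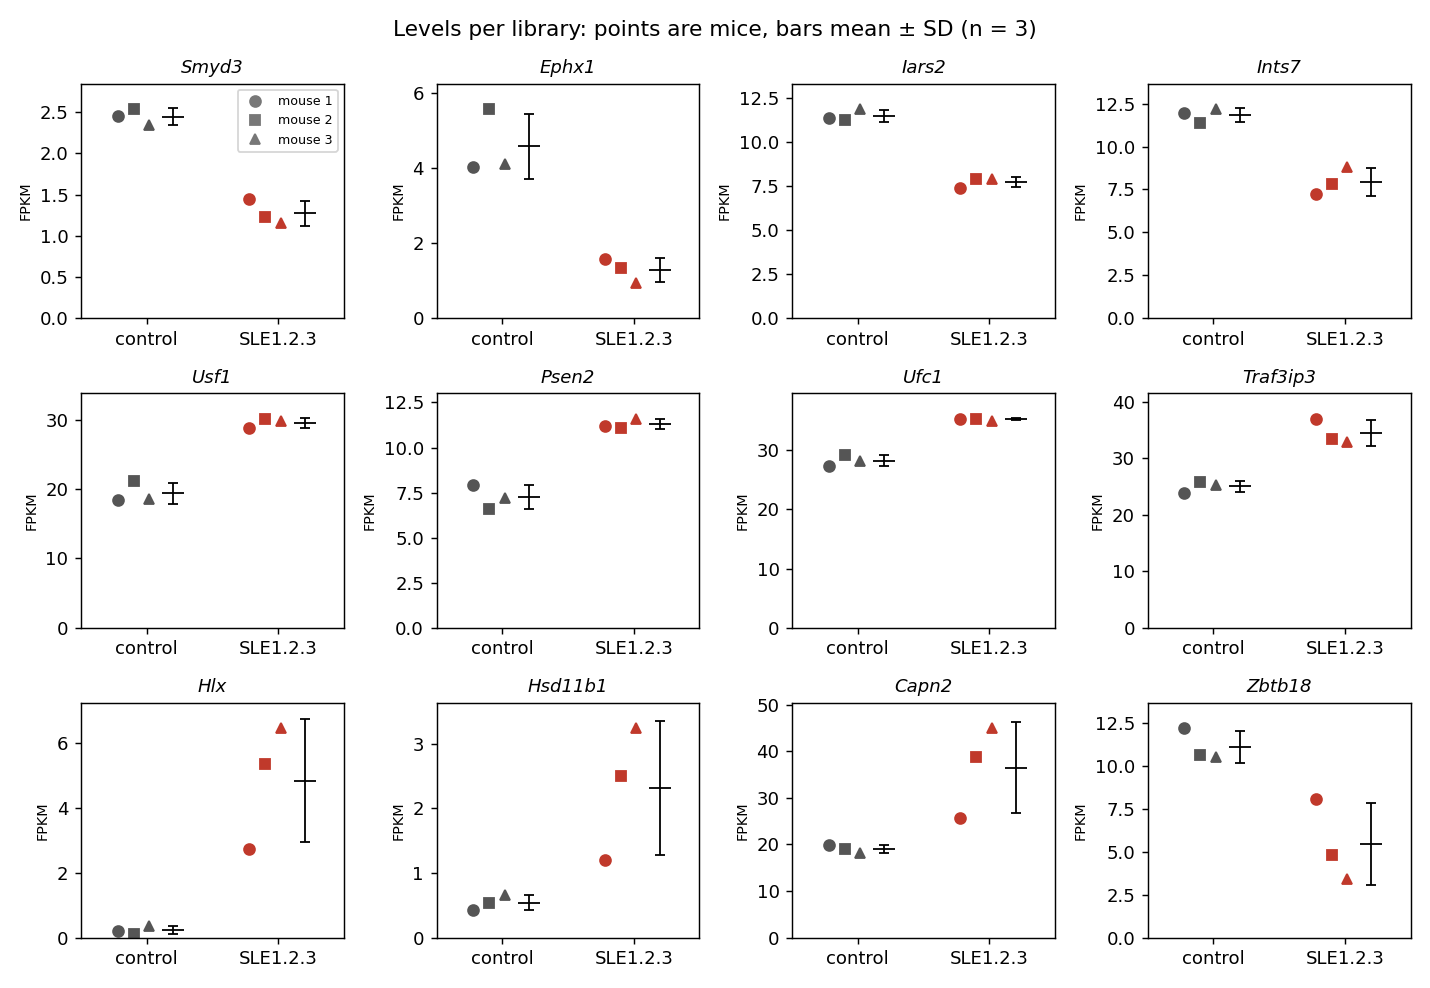
FPKM of 12 members in each library (marker shape gives the mouse number, a label that does not pair mice across groups), with mean ± SD, 3 mice per group and axes that start at 0. In each panel the SLE1.2.3 mice lie apart from the controls. Mouse 1 lies nearest to the controls in Hlx, Hsd11b1, Capn2 and Zbtb18, and also in Smyd3, Ephx1 and Usf1 of the upper 8 panels.

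By role, members past the threshold are set beside the 15.2% called among all tested genes (9.65% higher, 5.58% lower), and no difference from these shares was tested. Of 13 signalling members 5 rose (38.5%), namely Dusp12, Arhgap30, Pea15a, Traf5 and Traf3ip3, Itpkb fell (7.7%) and 7 did not pass; the median log2 change was 0.24 against 0.01 for all tested genes. Of 18 members linked to transcription and chromatin, Usf1 rose (5.6%), 4 fell (22.2%), among them Zbtb18, Smyd3 and Ints7, and 13 did not pass, with a median of 0.15. For 1 of the 4 the direction was set by the choice. Of 19 metabolic members 5 rose (26.3%), 3 fell (15.8%) and 11 did not pass, with a median of 0.12. The direction of 3 of the 5, Kmo, Slc30a1 and Hsd11b1, was set by the choice, which leaves Degs1 and Marc2 as higher and Ppox, Ephx1 and Iars2 as lower. Of 19 members of the secretory pathway and protein handling 3 rose (15.8%; Ufc1, Psen2 and Capn2), 2 fell (10.5%; Ncstn and Nenf) and 14 did not pass, with a median of -0.01. Of 10 members for DNA replication, repair and mitosis, Nsl1 fell (10%) and 9 did not pass, with a median of -0.07. The lists were drawn up with results of these data known.

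The receptor and surface list was largely outside the measured range. Of its 18 genes 15 were below a mean of 1 FPKM, among them the Fc receptor genes Fcgr2b, Fcgr3 and Fcgr4 and the complement receptor gene Cr2, and the 3 members, Igsf8, Tmem63a and Cr1l, overlapped between groups. The list of cytoskeleton genes had Tagln2 as its single member of 6.

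The SLE1.2.3 libraries differed among themselves in how far they departed from the controls. For each member past the threshold, the departure of SLE1.2.3 mouse 1 from the control mean was divided by that of the mean of mice 2 and 3, on the log2(FPKM + 1) scale. The median of this share was 77.8% over the 28 members, against 68.5% over the 1733 called genes of the table. It was at least 80% in 13 of the 28 members (46.4%, against 37.9% of called genes) and under 50% in 5 (17.9%, against 21.4%). Since these genes were called on the same libraries, the shares are a description.

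Members with shares of at least 80% included Sde2, Arhgap30, Usf1, Psen2, Marc2, Ufc1, Nsl1, Iars2, Lamb3, Ncstn, Ints7 and Traf3ip3. In Traf3ip3, Ints7 and Ncstn mouse 1 departed further than mice 2 and 3, with shares of 140%, 138% and 134%. The shares under 50% were those of Zbtb18 (33%), Capn2 (38.2%), Hsd11b1 (38.8%), Degs1 (46.9%) and Ppox (48.6%). Each departed least in mouse 1, which this limit itself selects for, and most in mouse 3. The same order of mice was found in members above the limit, among them Hlx (64.5%), Ephx1 (79.7%) and Sde2 (80.6%). The part of other cells in the members of either kind was not tested.

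**Figure D4:**
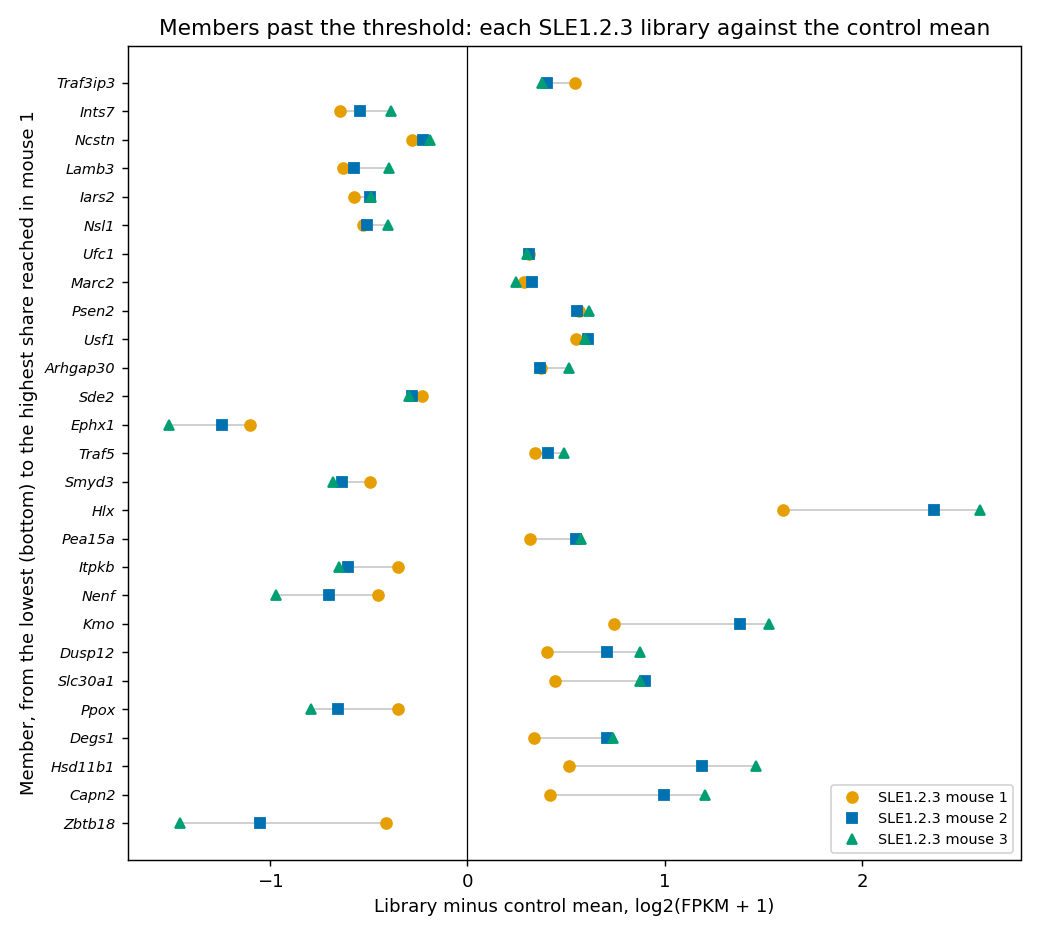
Departure of each SLE1.2.3 library from the control mean, on log2(FPKM + 1), for 27 of the 28 members past the threshold, ordered by the share that mouse 1 reached of the departure of mice 2 and 3. In the top rows mouse 1 lies furthest from 0, as for Traf3ip3 and Ints7. Below them the 3 mice lie close together for Ufc1, Psen2 and Usf1, and in the lower rows mouse 1 lies nearer to 0, as for Zbtb18 and Capn2.

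The calls depended on single mice. Without SLE1.2.3 mouse 2, 4 members passed, without SLE1.2.3 mouse 1 49 passed, and without SLE1.2.3 mouse 3 20 passed. Without control mouse 1, 2 or 3 the count was 6, 6 or 5. This was not particular to the members. Of all 11378 tested genes, 1733 passed in the main test. Without SLE1.2.3 mouse 2, 1 or 3, 240, 3701 or 1290 of them passed, and without control mouse 1, 2 or 3, 327, 261 or 288. Ephx1, Hlx and Iars2 passed with each of the 6 mice left out in turn. Ephx1 and Hlx also passed under each of the other alternatives in which they were fitted, whereas Iars2 did not pass when libraries were set to the same FPKM sum (limma adjusted p = 0.1). Hlx had entered through the SLE1.2.3 libraries alone, so its direction was set by the choice in these fits as well. When mice 2 and 3 of the SLE1.2.3 group were left out together, 7 members passed; that fit has 1 SLE1.2.3 library, which is assumed to vary as the controls do.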

How the data were processed

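The authors deposited 1 table of FPKM values for 33300 features with coordinates, lengths and biotypes, 1 column per mouse. FastQC 0.11.9 and cutadapt 2.10 appear in the submitters' processing notes beside STAR 2.7.3a, the counter featureCounts 2.0.0, DESeq2 1.24.0 and the build mm10, without role or order. The SMARTER kit was used on polyadenylated RNA, per the labels' protocols. No source used here gives the strand setting or the annotation release. Reads per library were recovered from the FPKM steps: 100% of the low values checked (under 30 reads) were whole within 0.15 of a read. A value of 0 allows up to 3 reads, for counting error only.

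Features with a mean of at least 1 FPKM, 11378 in all, were fitted with limma 3.58.1 in R 4.3.3 on log2(FPKM + 1), a scale that understates changes of low genes, with genotype as the only term, a mean-variance trend and Benjamini-Hochberg adjustment over all of them (threshold 0.05, two-sided). Mice are separate by their labels, and p-values rest on the spread among them. Ratios are of mean FPKM. Coordinates of 100 of 101 members equalled GENCODE M21, which gave the strands; Mia3 did not match. On the other strand, 52 members overlapped some feature of the table. Scripts were tested on simulated data. Members, lists and tests were chosen with earlier results of these data known. Named are members past the threshold (up to 15 per direction), the 5 of highest mean, those at the ends and at the limit, the best of each role list and a fixed set; other members are named to account for each, and Disp1, Atf6, Gpatch2 and Eprs were given values after these were seen. Alternatives changed the pseudocount, filter, scaling, variance model, block or set of mice. Of the 101 members, 3 enter the counts but are not reported here by name or in the figures. The listed symbol Tp53bp2 was matched to the member Trp53bp2 through RefSeq synonyms.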

Additional observations from a re-analysis of the deposited data

How the results depend on the processing

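All 28 members past the threshold kept their direction under the 18 alternatives in which they were fitted, but the count of calls did not hold. For those that entered through one group alone, the direction was set by the choice. Past the threshold were 12 members (6 higher, 6 lower) with no filter, 18 (9 and 9) of the 71 with a mean of at least 5 FPKM, 18 (13 and 5) with libraries set to one FPKM sum, which moved the median of all tested genes by 0.0993, and 33 (13 and 20) with quantile normalization. Array weights, which did not converge, gave 72 (39 and 33), and leaving out SLE1.2.3 mice 2 and 3 gave 7 (3 and 4). With each mouse left out in turn the count ran from 4 to 49, higher members from 1 to 29 and lower members from 3 to 20. Counts over all tested genes changed as well, from 1733 of 11378 in the main test. They were 798 of 30034 with no filter and 1129 of 7218 with a mean of at least 5 FPKM. Of the 11378, 1341 passed with one FPKM sum, 1802 with quantiles, 6952 with array weights and 940 with the replicate block. With each mouse left out in turn, 240 to 3701 passed. With the replicate number as a block, 18 passed (9 and 9); deviations of same-numbered mice correlated at -0.004, 0.1 and 0.091, so the numbers were not taken as pairs. The cause of these changes was not tested. Signs reversed for 11 members, none of them past the threshold in the main test, among them Chml and Cr1l with log2 changes of 0.33 and 0.24 there. With one FPKM sum the log2 change was 0.0307 for Uap1, 0.0268 for Igsf8, 0.0428 for Parp1, 0.0714 for Tmem63a, 0.0775 for Lbr and 0.0401 for Cenpf. For Hnrnpu it was -0.0105 by median ratio, -0.001 by quantiles, -0.0049 with array weights and -0.0032 with voom. For Dusp10 it was -0.0024 with a pseudocount of 0.1 FPKM, -0.0217 by median ratio, -0.0519 by quantiles, -0.0538 with array weights, -0.0072 with voom and -0.0122 when the scaling ignored ribosomal, small and mitochondrial RNA. Array weights gave 0.0259 for Tmem63a and 0.0039 for Lbr. Without SLE1.2.3 mice 2 and 3 it was -0.0129 for Chml, -0.164 for Hnrnpu, 0.184 for Tmem63a, -0.12 for Rrp15 and -0.089 for Cr1l. With each mouse left out in turn, changes of either sign were found for Hnrnpu (-0.0863 to 0.1047), Tmem63a (-0.1337 to 0.1058), Lbr (-0.1231 to 0.0689), Dusp10 (-0.1417 to 0.1156), Rrp15 (-0.0024 to 0.2558) and Cenpf (-0.1966 to 0.0167).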
